A study of Sus scrofa with 105 samples.

Results

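miR-9 and miR-124a are among the microRNAs (miRNAs, short RNAs that lower the output of matching messenger RNAs) most closely tied to the nervous system. They were followed here in the brains of female piglets after diffuse traumatic brain injury. They are 2 of the 448 miRNAs in a deposited table of small RNA counts, where they stand as ssc-miR-9 and ssc-miR-124a, and were picked by name. Every entry of the table named miR-9, or miR-9 with a copy number, was taken as miR-9, and every entry named miR-124a as miR-124a. Where entries repeated the same reads, the entry with the highest total was kept.

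The tissue was fixed in formalin and embedded in paraffin, and was either the hippocampus together with the amygdala or the frontal lobe. Group CsA was injured and treated with cyclosporine A, a calcineurin inhibitor and immunosuppressant, given intravenously at 20 mg/kg per day. Its loading dose came 6 hours after injury, the infusion ran for 24 hours, and the animals survived 30 hours. The 1 week group was injured and survived 6 to 8 days, and the 1 day group was injured and survived 1 day. Both are labelled untreated, as is the sham or naive group, which the labels join under 1 name with a survival of 0 to 8 days. No vehicle-treated injured group at 30 hours was analysed here, so the 1 day group is the nearest untreated one. The hippocampus and amygdala gave 10, 15, 10 and 18 libraries of the CsA, 1 week, 1 day and sham groups, and the frontal lobe gave 9, 15, 10 and 18. These are 105 libraries of 53 animal codes, and 52 codes gave both regions. The design text gives fewer subjects than there are codes, so the number of animals is uncertain, and each code is treated as 1 animal.

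miR-124a is made by neurons from their birth onward and represses many transcripts of non-neuronal cells, among them that of the splicing factor PTBP1. Its genes are kept silent outside neurons by the repressor REST. miR-9 is made by neural progenitors, neurons and astrocytes, acts on regulators of progenitor growth such as HES1 and NR2E1, and in mammals also lowers REST. Both are used as markers of neural tissue. In bulk tissue, fewer cells of a type and less of the miRNA per cell cannot be told apart.

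The table lists miR-9 in 9 entries, from 3 mature names set against the precursors mir-9-1, mir-9-2 and mir-9-3. Their totals over all libraries ran from 9571526 to 9572138 counts, and the lowest lay 0.0064% below the highest. miR-124a has 2 entries, from mir-124a-1 and mir-124a-2, with totals of 6265555 and 6265888. The entries of each miRNA thus carry nearly the same reads, and the gene of origin cannot be told from these counts. In the RefSeq annotation of Sscrofa11.1, MIR9-1 lies inside the transcript LOC106510131 between MEF2D and RHBG, MIR9-2 lies between TMEM161B and MEF2C, and MIR9-3 between POLG and LOC106510141. MIR124A-1 lies between BHLHE22 and YTHDF3, and MIR124A-2 between KIF13B and MSRA. MEF2C, MEF2D and BHLHE22 encode transcription factors of the nervous system, among other tissues. The table as used here has no entry for the opposite arm of either hairpin.

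The smallest library held 98008 counts, the median library 7257404 and the largest 12703535, and 3 sham libraries stood apart with totals of 98008, 401354 and 678907. Median totals in the hippocampus and amygdala were 9243073 in CsA, 6861927 at 1 week, 9223635 at 1 day and 5365075 in sham libraries. Frontal median totals were 8438371, 6816575, 9866050 and 4679652 in the same order of groups. The let-7 family with miR-98 took a mean of 75.5%, 77.2%, 73.5% and 79.0% of the counts in those groups of the hippocampus and amygdala. Its frontal means were 76.8%, 78.7%, 75.9% and 80.4%. Of the 5 neuronal markers other than miR-124a, 3 were plentiful: frontal miR-138 averaged 10340 CPM (counts per 1000000 counts of the library), miR-128 7082 CPM and miR-129a-5p 3687 CPM, whereas miR-218 averaged 60.4 CPM and miR-218-3p was at 0 in 43 of 52 frontal libraries. miR-338, a marker of oligodendrocytes, averaged 1208 CPM in the frontal lobe, whereas miR-219a, another marker of those cells, averaged 2.10 CPM. Frontal means of the red cell markers were 3.22 CPM for miR-451, 1.09 CPM for miR-144 and 128 CPM for miR-486, and miR-122-5p of liver averaged 68.7 CPM. Of the leukocyte markers miR-155-5p averaged 297 CPM and miR-155-3p was at 0 in every library.

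Both miRNAs were among the more abundant of the table. miR-9 took between 0.351% and 2.40% of a library's counts and ranked between place 7 and place 22, with a median place of 11. miR-124a took between 0.494% and 1.35% and ranked between place 8 and place 21, with a median place of 14. The libraries held between 344 and 247066 reads of miR-9 and between 786 and 169693 reads of miR-124a. The places of the pair were exchanged between groups: in the frontal lobe the median place of miR-9 was 9 in CsA, 12 at 1 week, 8 at 1 day and 14 in sham animals, and that of miR-124a was 15, 12, 17 and 10 in the same order.

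Except for the sums of cell type markers, group levels below are CPM with the TMM factors of edgeR, which scale each library to the bulk of its miRNAs. Differences are log2 fold changes with their standard error (SE) from edgeR's quasi-likelihood test, with Benjamini-Hochberg adjustment over all miRNAs tested in that comparison, and a difference is called at an adjusted p under 0.05. The 1 day, 1 week and CsA comparisons with sham share the sham libraries.

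One day after injury miR-9 was higher and miR-124a lower than in sham animals, in both regions. Both members were called in both regions, where 48.6% of the 290 miRNAs tested in the hippocampus and amygdala and 44.7% of the 284 tested in the frontal lobe were called in either direction, so a call alone does not set the pair apart. In the hippocampus and amygdala miR-9 ran from 9469 CPM over a median of 15223 to 18922 CPM in the 10 libraries of the 1 day group, against 5533, 8310 and 16997 CPM in the 18 sham libraries. All 10 libraries of the 1 day group lay above the sham median and 3 lay above every sham library. The difference was 0.74 (SE 0.14, adjusted p = 0.00010, 95% interval 0.45 to 1.02), a 1.67-fold rise. Frontal values were 10073, 13046 and 18506 CPM (lowest, median and highest) at 1 day, against 5349, 7564 and 21499 CPM in sham animals. Again 10 of 10 libraries of the 1 day group lay above the sham median, but none above the highest sham library. The difference was 0.60 (SE 0.17, adjusted p = 0.0032, 95% interval 0.26 to 0.93), or 1.51-fold.

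miR-124a was lower at 1 day than in sham animals. Its lowest, median and highest values in the hippocampus and amygdala were 4936, 6633 and 10382 CPM at 1 day, against 6311, 8548 and 13209 CPM in sham animals. Of the 10 libraries of the 1 day group 8 lay below the sham median, and the groups overlapped widely. The difference was -0.33 (SE 0.11, adjusted p = 0.015, 95% interval -0.56 to -0.098). Frontal miR-124a had 5437, 7119 and 9602 CPM in that order at 1 day, against 6392, 10521 and 12221 CPM in sham animals, and 10 of 10 lay below the sham median. This difference was -0.47 (SE 0.10, adjusted p = 0.00036, 95% interval -0.68 to -0.26), which puts sham 1.38-fold above the 1 day group. Neither difference between 1 day and sham was found to depend on region: the interaction was 0.059 (SE 0.13, adjusted p = 0.97) for miR-9 and 0.094 (SE 0.12, adjusted p = 0.92) for miR-124a, and 0 of the 298 miRNAs tested were called for it by edgeR or by DESeq2, with 9 and 16 at an unadjusted p under 0.05.

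Without the 1 sham library of low total in the hippocampus and amygdala, left out after the values were seen, 1 day minus sham was 0.73 for miR-9 and -0.33 for miR-124a in the hippocampus and amygdala (adjusted p = 0.00012 and 0.017). Without the 2 such frontal libraries it was 0.53 and -0.43 in the frontal lobe (adjusted p = 0.0097 and 0.0011), and all of them were still called. With the log10 library total as a covariate, frontal miR-9 and miR-124a in the hippocampus and amygdala were not called. Within animals coded 12 or 13 none was called, as given further on.

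CsA animals also had more miR-9 than sham animals in both regions, and less miR-124a in the frontal lobe. In the hippocampus and amygdala miR-9 had a lowest, median and highest value of 9935, 11449 and 19714 CPM in CsA animals, against the sham values above, and 10 of 10 lay above the sham median. The difference from sham was 0.49 (SE 0.14, adjusted p = 0.015), and 20.3% of the miRNAs tested were called in this comparison. Frontal miR-9 ran from 10286 CPM over a median of 13544 to 18567 CPM in the 9 CsA libraries, all of them above the sham median. Its difference from sham was 0.57 (SE 0.17, adjusted p = 0.0094), where 34.2% of miRNAs were called. Frontal miR-124a had 5192, 7610 and 8908 CPM as its lowest, median and highest value in CsA animals, and 9 of 9 libraries lay below the sham median. It differed from sham by -0.42 (SE 0.11, adjusted p = 0.0038). Without the sham libraries of low total CsA minus sham was 0.48 for miR-9 in the hippocampus and amygdala (adjusted p = 0.018), and 0.50 for miR-9 and -0.39 for miR-124a in the frontal lobe (adjusted p = 0.026 and 0.0096). None of these differences was called with the log10 library total as a covariate, or within animals coded 12 or 13, as given further on.

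In the hippocampus and amygdala miR-124a was not called between CsA and sham animals. Its lowest, median and highest values were 5897, 7328 and 11272 CPM in CsA animals, against 6311, 8548 and 13209 CPM in sham animals, a difference of -0.14 (SE 0.11, adjusted p = 0.36, 95% interval -0.37 to 0.087). That the effect differed between regions was not shown either, since the interaction of 0.27 (SE 0.12) had an unadjusted p of 0.033 and an adjusted p of 0.15. edgeR called 0 of the 298 interactions for CsA, with 73 at an unadjusted p under 0.05, and DESeq2 called 29, miR-124a not among them.

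Set against the untreated 1 day group, CsA animals showed no called difference of either member, and 0% of all miRNAs were called in either region by edgeR. At an unadjusted p under 0.05 there were 69 miRNAs in the hippocampus and amygdala and 12 in the frontal lobe, and DESeq2 called 15 and 0, neither member among them. miR-9 differed by -0.25 (SE 0.17, adjusted p = 0.36, 95% interval -0.58 to 0.083) in the hippocampus and amygdala, where 9 of 10 CsA libraries lay below the 1 day median. Frontal miR-9 differed by -0.027 (SE 0.20, adjusted p = 0.98, 95% interval -0.42 to 0.37). miR-124a differed by 0.19 (95% interval -0.071 to 0.44) and by 0.046 (95% interval -0.19 to 0.29) in the same order of regions, with adjusted p of 0.38 and 0.98. These intervals still hold a rise or a fall for both members, so the groups are not shown to be alike. The CsA animals also survived 30 hours, not 1 day, and treatment and time cannot be told apart.

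**Figure D1:**
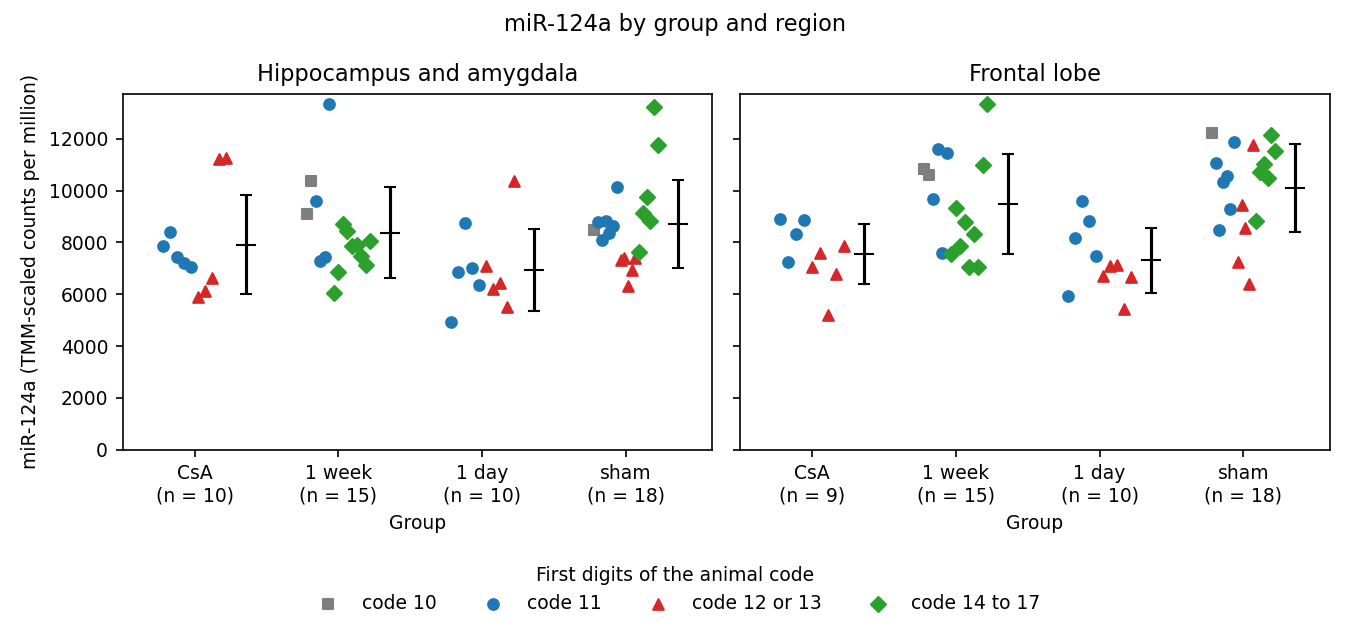
miR-124a in TMM-scaled CPM (vertical axis, linear from 0) in each library by group, with the hippocampus and amygdala on the left and the frontal lobe on the right. Points are libraries with the first digits of their animal code as colour and shape, and bars give mean and SD. In the frontal lobe all 10 libraries of the 1 day group and all 9 of the CsA group lie below the sham median of 10521 CPM.

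At 1 week neither member was called against sham over all animals. miR-9 had a lowest, median and highest value of 5988, 9969 and 14492 CPM at 1 week in the hippocampus and amygdala, and of 4924, 9265 and 13630 CPM in the frontal lobe. miR-124a had 6041, 7917 and 13326 CPM in the hippocampus and amygdala and 7042, 9337 and 13353 CPM in the frontal lobe. Both ranges of the 1 week group lay largely over those of sham animals. Against sham, miR-9 differed by 0.18 (SE 0.13, adjusted p = 0.74) and by 0.038 (SE 0.15, adjusted p = 0.998) in the same order of regions, and miR-124a by -0.059 (SE 0.10, adjusted p = 0.83) and by -0.094 (SE 0.091, adjusted p = 0.96). Against sham 0.345% of miRNAs were called in the hippocampus and amygdala and 0% in the frontal lobe, where edgeR gave 19 at an unadjusted p under 0.05 and DESeq2 called 1. The miR-9 values depend on the animal codes in the library names, which are described further on: animals coded 12 or 13 are in the sham group and not in the 1 week group. With the class of code as a term miR-9 differed from sham by 0.30 (unadjusted p = 0.016, adjusted p = 0.30) in the hippocampus and amygdala and by 0.28 (unadjusted p = 0.031, adjusted p = 0.31) in the frontal lobe. Within code 11 it differed by 0.60 (unadjusted p = 0.0030, adjusted p = 0.17) and by 0.53 (unadjusted p = 0.011, adjusted p = 0.60) in the same order, with 4 animals at 1 week and 6 sham animals.

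Against the 1 day group, 1 week animals had less miR-9 in both regions over all animals, a call that was lost in both with the class of code as a term (-0.42, adjusted p = 0.075, in the hippocampus and amygdala and -0.26, adjusted p = 0.25, in the frontal lobe). The difference was -0.55 (SE 0.15, adjusted p = 0.0053) in the hippocampus and amygdala, where 15 of 15 libraries of the 1 week group lay below the 1 day median and 7 lay below every library of the 1 day group. It was -0.56 (SE 0.17, adjusted p = 0.011) in the frontal lobe, where 14 of 15 lay below that median. Frontal miR-124a was higher at 1 week than at 1 day, by 0.37 (SE 0.11, adjusted p = 0.0062), and 13 of 15 libraries of the 1 week group lay above the 1 day median. With the class of code as a term this was 0.28 (adjusted p = 0.066) and not called. Its difference of 0.27 (SE 0.12, adjusted p = 0.069) in the hippocampus and amygdala missed the threshold, although 14 of 15 lay above the median. The share of all miRNAs called between 1 week and 1 day was 29.3% in the hippocampus and amygdala and 35.9% in the frontal lobe.

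The ratio of the members inside a library does not depend on how libraries are scaled, and is given as the log2 of the miR-9 count over the miR-124a count, each with 1 added, with no test. In the hippocampus and amygdala it averaged 0.65 ± 0.51 in CsA animals, 0.23 ± 0.65 at 1 week, 1.08 ± 0.52 at 1 day and -0.021 ± 0.57 in sham animals (SD; n = 10, 15, 10 and 18). Frontal ratios averaged 0.84 ± 0.50, -0.042 ± 0.62, 0.91 ± 0.51 and -0.23 ± 0.73 in the same order (n = 9, 15, 10 and 18). Every library of the CsA and 1 day groups had more reads of miR-9 than of miR-124a, with lowest ratios of 0.033 and 0.11 in the hippocampus and amygdala and of 0.21 and 0.22 in the frontal lobe. Sham libraries lay on both sides of 0 in both regions. At 1 week the ratio was below the 1 day median in 15 of 15 libraries of either region, and below every library of the 1 day group in 6 of 15 in the hippocampus and amygdala and 9 of 15 in the frontal lobe.

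**Figure D2:**
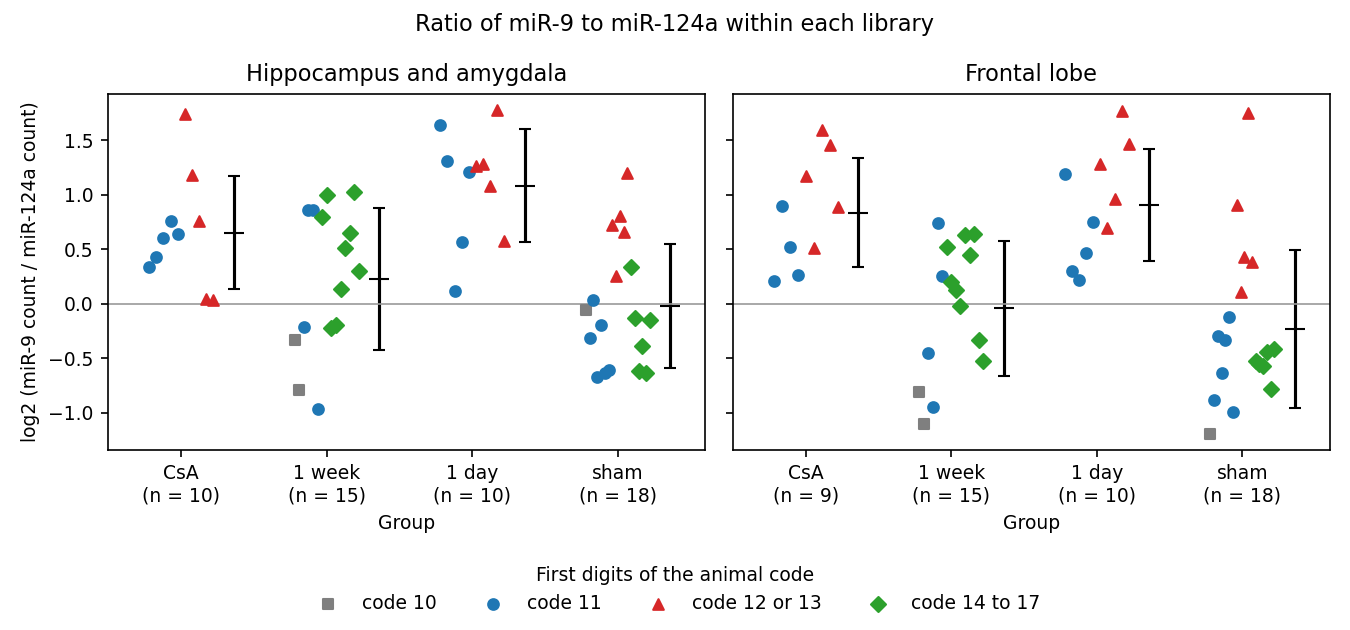
Log2 ratio of the miR-9 count to the miR-124a count within each library (vertical axis, log2 units, 0 marked by a line) by group and region. Points are libraries with the first digits of the animal code as colour and shape, and bars give mean and SD. All CsA and 1 day libraries lie above 0, and so do all 5 sham libraries of animals coded 12 or 13 in each region.

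The spread inside the sham group followed the animal codes in the library names. The codes begin with 10 to 17, their meaning is not given, and all CsA and 1 day animals have codes beginning with 11, 12 or 13, whereas 9 of the 15 animals of the 1 week group begin with 14 to 17. Codes also carry letters of unknown meaning. All CsA and 1 day codes carry U, whereas sham codes beginning with 11, 12 or 13 carry B, F, I or no letter. Inside these codes the difference of CsA or 1 day from sham and that of the letters cannot be told apart. The division by digits was looked at after the values were seen, and is a description. Frontal miR-9 in the 5 sham animals coded 12 or 13 ran between 10190 and 21499 CPM, and the 13 other sham animals had 5349 to 8628 CPM, so the classes did not overlap. Levels in the hippocampus and amygdala were 8815 to 16997 CPM and 5533 to 10608 CPM, which did overlap. miR-124a ran from 6311 to 7394 CPM in the sham animals coded 12 or 13 and from 7628 to 13209 CPM in the others in the hippocampus and amygdala, without overlap. Frontal miR-124a ran from 6392 to 11741 CPM and from 8489 to 12221 CPM, with overlap. How many of all miRNAs divide by these classes in sham animals was not counted, so the division is not shown to be particular to the pair. Library totals moved with the codes too, with a frontal median of 8767444 counts in sham animals coded 12 or 13 and 4221877 in the others.

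Within code 11 the CsA and 1 day groups, all with the letter U, lay above sham, with B or no letter, in miR-9. Of animals coded 11, 5 CsA libraries had 9935 to 12242 CPM, and 5 libraries of the 1 day group had 9469 to 17005 CPM, against 5533 to 8280 CPM in 6 sham libraries, all from the hippocampus and amygdala. Frontal levels of 4 CsA libraries were 10286 to 13544 CPM and those of 5 libraries of the 1 day group 10073 to 13549 CPM, against 5956 to 8554 CPM in 6 sham libraries. Neither group overlapped sham in either region. How many of all miRNAs also failed to overlap in these small sets was not counted, so this does not set miR-9 apart. Fitted on code 11 alone, 1 day minus sham was 0.97 (adjusted p = 0.0014, 38.6% of miRNAs called) in the hippocampus and amygdala and 0.79 (adjusted p = 0.0080, 32.4% called) in the frontal lobe. CsA minus sham was 0.70 in both regions, with adjusted p of 0.022 (8.62% called) in the hippocampus and amygdala and 0.071 (0% called, 71 at an unadjusted p under 0.05) in the frontal lobe. Median totals also differed inside code 11, at 7133782 counts in frontal libraries of the 1 day group and 2839274 in sham libraries, and the part of the total in these differences was not tested within the code.

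Within codes 12 and 13, with 5 animals a group, the difference of miR-9 from sham was smaller in value and was not called. It was 0.40 (adjusted p = 0.22) for 1 day and 0.19 (adjusted p = 0.70) for CsA in the hippocampus and amygdala, and in the frontal lobe 0.18 (adjusted p = 0.64) and 0.054 (adjusted p = 0.95). edgeR called 0% of miRNAs in each of these 4 fits, with 53 (1 day) and 34 (CsA) at an unadjusted p under 0.05 in the hippocampus and amygdala and 61 and 40 in the frontal lobe; DESeq2 was not run on these animals alone. Frontal miR-9 had 10831 to 18567 CPM in CsA animals and 11517 to 18506 CPM at 1 day, both inside the sham range of 10190 to 21499 CPM. Whether the difference from sham is itself different between the code classes was not tested. For frontal miR-124a, 1 day minus sham was -0.33 within code 11 (adjusted p = 0.069) and -0.35 within codes 12 and 13 (adjusted p = 0.20), and CsA minus sham was -0.32 (adjusted p = 0.17) and -0.35 (adjusted p = 0.32). None of these 4 passed the threshold. The 1 day difference of miR-124a in the hippocampus and amygdala was -0.40 within code 11 (adjusted p = 0.042) and -0.017 within codes 12 and 13 (adjusted p = 0.97).

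With all animals and the code class as a term, frontal miR-9 at 1 day was higher than sham by 0.54 (adjusted p = 0.00096) and frontal miR-124a lower, at -0.43 (adjusted p = 0.00044). That term joins codes 10 and 11. Frontal miR-9 at 1 week averaged 5550 CPM in the 2 libraries coded 10 and 9853 CPM in the 4 coded 11. The 1 week differences in that fit are given above. Within codes 14 to 17, which hold 1 week and sham animals only, miR-9 was above sham at 1 week: 9 frontal libraries of the 1 week group had 8563 to 11386 CPM, against 6129 to 8628 CPM in 6 sham libraries, and 8 of the 9 lay above every sham library. This difference was 0.43 (SE 0.098, adjusted p = 0.0038), where 23.7% of 270 miRNAs were called. miR-124a in the hippocampus and amygdala was lower than sham at 1 week in these codes, by -0.39 (adjusted p = 0.027), where 7.38% were called, and its 9 libraries ran from 6041 to 8693 CPM, against 7628 to 13209 CPM in 6 sham libraries. In the same codes miR-9 in the hippocampus and amygdala differed by 0.34 (adjusted p = 0.14) and frontal miR-124a by -0.29 (adjusted p = 0.096), and neither was called. Over all animals, none of these 4 differences was called. Median totals also differed inside codes 14 to 17, at 8491785 counts in frontal libraries of the 1 week group and 5060099 in sham libraries. The 1 week animals there are coded 14, 15 or 17 and the sham animals 14 or 16. The parts of the total and of the single codes in these differences were not tested within the class.

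**Figure D3:**
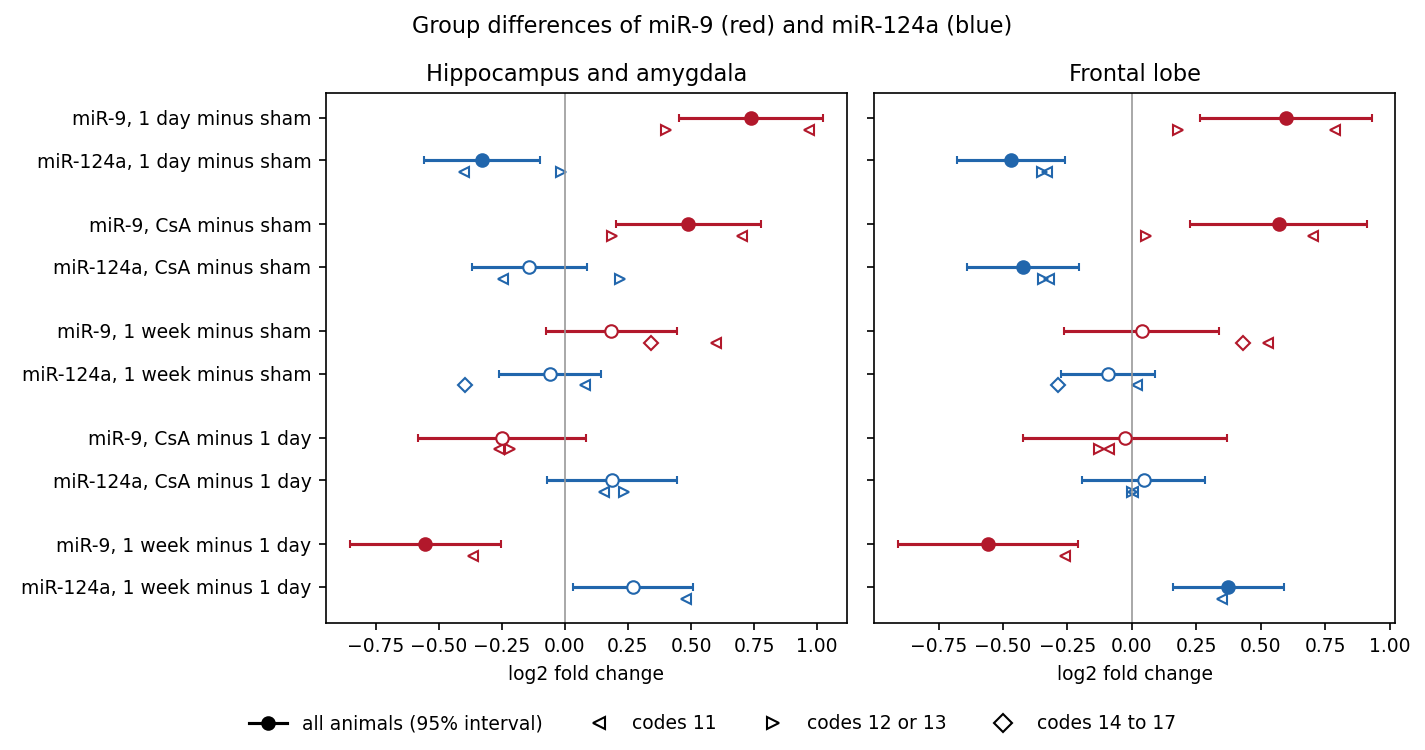
Log2 fold changes of miR-9 (red) and miR-124a (blue) for 5 comparisons (vertical axis), with the hippocampus and amygdala on the left and the frontal lobe on the right. Circles are the fits of all animals with 95% intervals, filled where the adjusted p was under 0.05, and open triangles and diamonds are fits within a class of animal codes. The miR-9 differences from sham within code 11 lie right of the all-animal values, and those within codes 12 and 13 lie left of them.

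Library total moved with both members as well. Over 16 relations of log2 CPM with the log10 total inside a group and region, r was positive for miR-9 in all 8 and negative for miR-124a in all 8. After adjustment over the 16, both coefficients passed for miR-9 in the hippocampus and amygdala at 1 week (r = 0.83, adjusted permutation p = 0.0043; rho = 0.80, adjusted p = 0.013; n = 15). They passed for miR-124a in the hippocampus and amygdala at 1 week (r = -0.69, adjusted permutation p = 0.016; rho = -0.65, adjusted p = 0.040; n = 15). Without the 2 libraries farthest from the median total r was 0.79 and -0.59 in that order. Neither passed inside a code class: among the 9 animals of the 1 week group coded 14 to 17, r was 0.60 for miR-9 and -0.12 for miR-124a in the hippocampus and amygdala (exact permutation p = 0.086 and 0.77). Frontal miR-9 in sham animals falls apart by code class, so no r is given over all of them, and inside classes it gave r = 0.41 in code 11 and -0.26 in codes 14 to 17 (n = 6 each, exact permutation p = 0.41 and 0.66), and other classes held too few libraries.

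With the log10 total as a covariate, the 1 day difference from sham of miR-9 was 0.50 (adjusted p = 0.0097) in the hippocampus and amygdala, and 0.31 (adjusted p = 0.12) in the frontal lobe. That of miR-124a was -0.23 (adjusted p = 0.15) in the hippocampus and amygdala and -0.35 (adjusted p = 0.014) in the frontal lobe. The CsA difference of miR-9 was 0.25 (adjusted p = 0.34) in the hippocampus and amygdala and 0.33 (adjusted p = 0.12) in the frontal lobe, and that of frontal miR-124a was -0.32 (adjusted p = 0.058). Of these differences from sham, miR-9 in the hippocampus and amygdala and frontal miR-124a, both at 1 day, were still called. Totals, codes and groups overlap in part, and their shares in the differences from sham cannot be told apart.

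Comparing the regions within animals, miR-124a was lower in the hippocampus and amygdala than in the frontal lobe in 39 of 52 animals. In sham animals, with both regions scaled together, it averaged 8506 ± 1815 CPM in the hippocampus and amygdala and 10271 ± 1695 CPM in the frontal lobe (SD, n = 18), and was lower there in 14 of 18 animals. In the fit with the animal as a block this was a difference of -0.28 (SE 0.071, adjusted p = 0.00094), and 47.3% of the 298 miRNAs were called between regions in sham animals. At 1 week the difference was -0.23 (SE 0.078, adjusted p = 0.013; 43% called), and 11 of 15 animals had less miR-124a in the hippocampus and amygdala. It was -0.19 (adjusted p = 0.11; 46.6% called) in the 10 animals at 1 day and -0.0087 (adjusted p = 0.95; 57% called) in the 9 CsA animals. In that CsA set miR-124a averaged 7825 ± 2242 CPM in the hippocampus and amygdala and 7693 ± 1083 CPM in the frontal lobe, and 6 of 9 animals still had less in the hippocampus and amygdala.

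No region difference of miR-9 was called. It was lower in the hippocampus and amygdala in 27 of 52 animals, and the difference was -0.16 (adjusted p = 0.21) in CsA animals, 0.035 (adjusted p = 0.77) at 1 week, -0.014 (adjusted p = 0.93) at 1 day and -0.073 (adjusted p = 0.48) in sham animals. The widest 95% interval of the 4, in CsA animals, ran from -0.39 to 0.059.

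An animal's level in one region went with its level in the other at 1 week for miR-9 when codes were pooled. Of 8 relations, 1 for each member in each group, r over the 1 week group was 0.80 (adjusted permutation p = 0.0023; rho = 0.70, adjusted p = 0.027; n = 15), and 0.70 without the 2 farthest animals. Among the 9 of these animals coded 14 to 17, r was 0.33 (exact permutation p = 0.37). The relation thus did not pass inside the class, and 9 animals are too few to show that it is absent. Frontal miR-9 at 1 week also differed by code, at 4924 to 6177 CPM in code 10 and 8563 to 11386 CPM in codes 14 to 17. Code 11 spanned both, at 6013 to 13630 CPM. For miR-124a at 1 week r was 0.55 (adjusted permutation p = 0.054) and did not pass. The pooled sham relations of both members passed after adjustment. The sham values divide by code class, for miR-9 in the frontal lobe and for miR-124a in the hippocampus and amygdala, so no r over that group is given. Inside its classes of 6 animals r was 0.23 (code 11) and 0.35 (codes 14 to 17) for miR-9, and -0.19 and 0.66 for miR-124a, with exact permutation p of 0.59, 0.51, 0.74 and 0.15. In CsA and 1 day animals r lay between 0.13 and 0.29 for both miRNAs and did not pass.

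**Figure D4:**
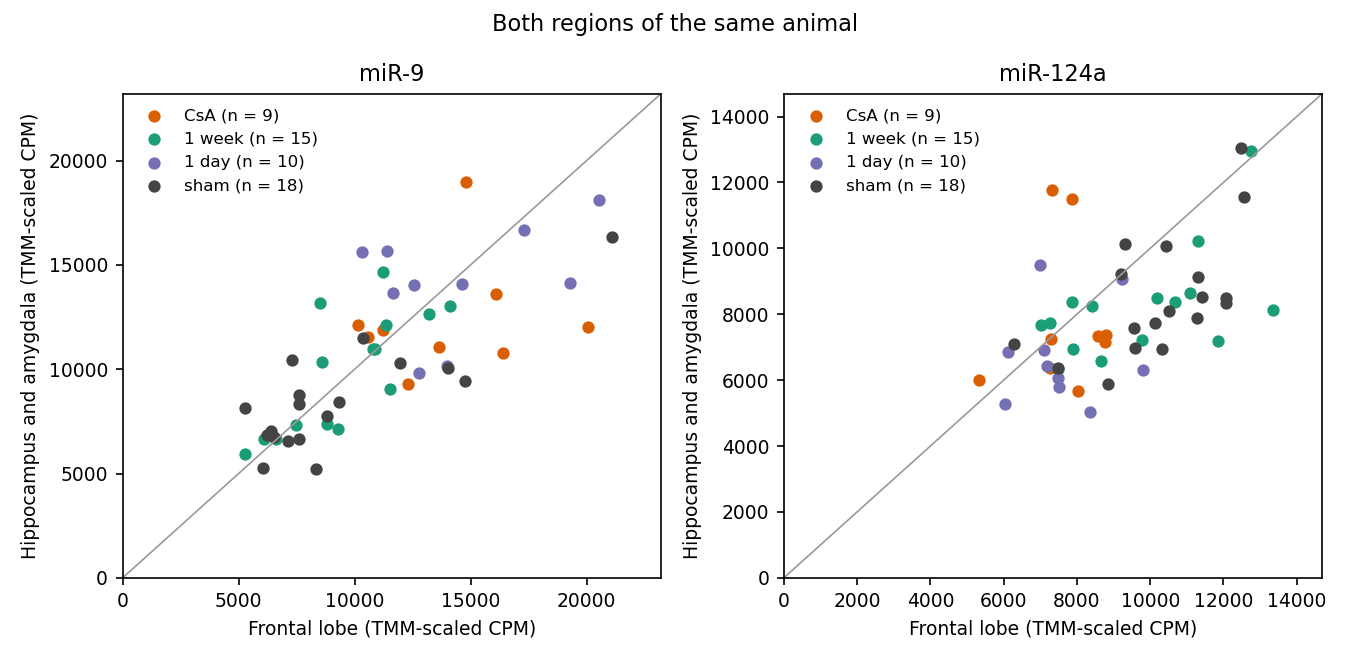
Level in the hippocampus and amygdala (vertical axis) against the frontal lobe (horizontal axis) of the same animal, in CPM scaled over both regions together, for miR-9 on the left and miR-124a on the right. Points are the 52 animals with both regions, coloured by group, and the line marks equal levels. miR-124a lies under the line in 39 animals and miR-9 in 27.

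The next rankings pool all groups of a region, as a description that shares the libraries' group differences, scaling, totals and codes. The miRNAs whose log2 levels went most closely with each member were ranked by Pearson's r over all libraries of a region. For miR-9 in the hippocampus and amygdala (53 libraries, 200 miRNAs with a mean of at least 10 CPM) these were miR-381-3p at 0.92, miR-107 at 0.88, and miR-103, miR-15b and miR-30a-5p at 0.85 or above. Over the frontal lobe (52 libraries, 206 miRNAs) they were miR-30e-5p at 0.93, miR-381-3p at 0.89, miR-30a-5p at 0.88, miR-130a at 0.87 and miR-27a at 0.87. miR-381-3p and miR-30a-5p were in both sets. The lowest r for miR-9 were -0.90 for miR-2366, -0.90 for miR-885-3p and -0.87 for miR-139-3p in the hippocampus and amygdala, and -0.93 for miR-320, -0.92 for miR-2366 and -0.92 for miR-769-3p in the frontal lobe.

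miR-124a had looser partners. They were miR-181d-5p at 0.77, miR-423-5p at 0.74, miR-671-5p at 0.74, miR-1307 at 0.72 and miR-885-3p at 0.70 in the hippocampus and amygdala. Frontal partners were miR-423-3p at 0.84, miR-7134-3p at 0.80, miR-671-5p at 0.79, miR-320 at 0.78 and miR-1307 at 0.78. Its lowest r were -0.75 for miR-30b-5p, -0.72 for miR-30c-5p and -0.71 for miR-27b-3p in the hippocampus and amygdala, and -0.77 for miR-130a, -0.74 for miR-27b-3p and -0.73 for miR-27a in the frontal lobe. Over the same pooled groups the members themselves had r = -0.60 in the hippocampus and amygdala and -0.73 in the frontal lobe. miR-320 and miR-885-3p stood at the top for miR-124a and at the bottom for miR-9 in 1 region each.

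Other neuron-enriched miRNAs went both ways at 1 day. Of 13 such miRNAs 12 were tested. At 1 day 5 were higher and 1 lower than in sham animals in the hippocampus and amygdala, with a median log2 fold change of 0.24 beside 0.065 over all miRNAs tested. Frontal libraries had 3 higher and 1 lower, with a median of 0.16 beside -0.040 over all. Over all miRNAs tested 28.3% were higher and 20.3% lower in the hippocampus and amygdala, and 18.7% higher and 26.1% lower in the frontal lobe. With RLE factors in place of TMM these splits were 69 higher and 70 lower against 82 and 59, and 74 higher and 63 lower against 53 and 74. The most abundant of the list were miR-7-5p, miR-138, miR-128 and miR-129a-5p. Of these miR-138, which acts at dendritic spines in rodents, was higher by 0.23 (adjusted p = 0.034) in the hippocampus and amygdala and by 0.29 (adjusted p = 0.018) in the frontal lobe. miR-129a-5p was lower, as miR-124a was, by -0.52 (adjusted p = 0.00087) and by -0.40 (adjusted p = 0.0041) in the same order. miR-7-5p differed from sham by 0.048 and 0.12, and miR-128 by -0.014 and 0.0040, and neither was called. In CsA animals 3 were higher than sham and 0 lower in the hippocampus and amygdala, and 2 were higher and 0 lower in the frontal lobe. The shares over all miRNAs were 11% higher and 9.31% lower, and 14.8% higher and 19.4% lower (25 and 32, and 53 and 48 miRNAs with RLE factors, against 32 and 27, and 42 and 55). At 1 week 0 were called against sham in either region.

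Of the 8 other miRNAs of the table listed as controlled by REST, 7 were tested, and 3 were higher and 1 lower at 1 day than in sham animals in each region, where the shares over all miRNAs were 28.3% higher and 20.3% lower in the hippocampus and amygdala and 18.7% higher and 26.1% lower in the frontal lobe. Those that rose were miR-137, miR-212 and miR-29a-3p in both regions, named after their values were seen. The neuron-enriched list above also holds miR-132, miR-137 and miR-212, so the rises of miR-137 and miR-212 are counted in both lists. miR-137, which acts on synaptic genes, was higher by 0.63 (adjusted p = 0.00018) in the hippocampus and amygdala and by 0.45 (adjusted p = 0.018) in the frontal lobe. miR-212, induced by neuronal activity through CREB, was higher by 0.94 (adjusted p = 0.0022) and by 0.95 (adjusted p = 0.00087) in the same order, at mean levels of 8.90 and 11.0 CPM. miR-132, made from the same transcript as miR-212, differed by -0.045 (adjusted p = 0.76) and by -0.067 (adjusted p = 0.60). The member that fell was miR-139-3p, by -1.24 (adjusted p = 9.0e-05) and by -1.83 (adjusted p = 3.2e-05), while the other arm of its hairpin, miR-139-5p, differed by 0.17 (adjusted p = 0.063) and by 0.027 (adjusted p = 0.87). In CsA animals 2 of the list were higher and 1 lower than sham in the hippocampus and amygdala, and 3 were higher and 1 lower in the frontal lobe, where the shares over all miRNAs were 11% and 9.31%, and 14.8% and 19.4%.

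Sums of cell type markers, in CPM without TMM factors, also stood at other levels between the groups. In the hippocampus and amygdala the 6 neuronal markers, miR-124a among them, had medians of 28180 CPM in CsA and 28180 CPM at 1 week. The medians were 28860 CPM at 1 day and 25870 CPM in sham libraries. Frontal medians of the neuronal sum were 30340, 31340, 33120 and 28420 CPM in the same order, and its ranges at 1 day and in sham libraries overlapped. The summed endothelial markers, both arms of miR-126, had medians in the hippocampus and amygdala of 5154 CPM in CsA, 4714 CPM at 1 week, 5997 CPM at 1 day and 4068 CPM in sham libraries. Frontal medians were 6135, 6882, 7367 and 5248 CPM in the same order, with sham libraries running from 2081 to 7217 CPM and libraries of the 1 day group from 6144 to 10270 CPM. The sum of 6 microglial and leukocyte markers had medians of 393, 361, 450 and 337 CPM in the hippocampus and amygdala and 469, 455, 516 and 410 CPM in the frontal lobe. The 2 oligodendrocyte markers summed to medians of 634, 682, 712 and 732 CPM, and of 1094, 1230, 1163 and 1152 CPM, in the same order of regions. The 4 markers of choroid plexus and epithelium, miR-204, miR-34c, miR-200b and miR-429, summed to medians of 643, 502, 1135 and 469 CPM in the hippocampus and amygdala and 585, 242, 511 and 213 CPM in the frontal lobe. Their sums overlapped, at 276 to 2980 CPM at 1 day and 103 to 2003 CPM in sham libraries of the hippocampus and amygdala, and at 261 to 811 CPM and 61.8 to 1232 CPM in the frontal lobe. This sum was made up differently in the 2 regions. In the hippocampus and amygdala miR-204 averaged 450, miR-34c 352, miR-429 2.56 and miR-200b 0.853 CPM over all libraries. Frontal means were 117, 99.5, 152 and 53.6 CPM in the same order of markers. Mural cell markers, both arms of miR-143 and miR-145, had medians of 2438, 3185, 3309 and 2393 CPM, and frontally of 3925, 4292, 4493 and 2844 CPM. Frontal medians of the red cell sum were 104, 135, 119 and 130 CPM, those of the skeletal muscle sum 184, 158, 155 and 145 CPM, and those of the liver sum 59.2, 70.0, 54.0 and 57.5 CPM. The neuronal, choroid plexus and epithelium, endothelial, mural and leukocyte sums thus had higher medians at 1 day than in sham libraries in both regions. Median miR-9 in CPM without TMM factors was 15560 at 1 day against 8142 in sham libraries of the hippocampus and amygdala. Frontally it was 14620 against 7359. The mean let-7 share was lower at 1 day than in sham libraries in both regions, which leaves a larger share to other miRNAs. The part of that share in these sums was not tested. The part of cell composition in the levels of miR-9 and miR-124a was not tested.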

How the data were processed

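Small RNA libraries of fixed piglet brain had been prepared with the QIAseq miRNA kit, per the labels' protocols. The authors deposited raw counts per mature miRNA and library, and all 105 columns were mapped to samples by library name. Named tools were Trimmomatic 0.39 and cutadapt 1.9.1, by the submitters' processing notes, which give no roles. Not given in the sources used here are the aligner, counter, miRNA annotation, genome build and any use of molecular identifiers, and reads need not be independent molecules. Of 542 entries 89 were 0 in every library. Entries that share a mature name were merged to the one with the highest total. So were differently named ones with totals of at least 100 that differed by under 0.01 of the larger. For these the absolute differences library by library also had to sum to under 0.01 of the larger total. After merging 448 miRNAs were left.

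Counts were tested with edgeR 4.0.16 in R 4.3.3 (TMM, filterByExpr with minimum count 10 and total 15, robust quasi-likelihood, Benjamini-Hochberg at 0.05, 2-sided), with 4 groups in 1 fit per region. The fit that compared regions had the animal as a block, taken from the code that both libraries of an animal carry. Deviations from the group means correlated at a median of 0.239 over the 52 pairs and above 0.1 in 37. DESeq2 1.42.0, RLE factors, other filters and subsets were alternatives. Correlations used 100000 permutations, or all pairings with n under 10. The most alike of 687 pairs of libraries of 1 group differed by a chi-square of 4484 on 218 degrees of freedom, and each library was counted once. The test was checked on simulated data. The members, lists, animal-code classes and the naming rule were chosen with earlier results of these data known. The rule names both members, the 5 miRNAs with the highest and the 3 with the lowest correlation with each, and up to 4 members of each list by mean level.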

Additional observations from a re-analysis of the deposited data

Results flagged for a closer look

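Groups of 4 to 10 libraries of 1 region were checked for an outlying library in miR-9, miR-124a and their ratio. Of these 12 checks, which share libraries, 1 marked a library far from the others. It was miR-9 in the hippocampus and amygdala of CsA animals, where the highest library had 19714 CPM, and the gap to the next took 0.60 of the whole range of the group. Chance marks about 1 check in 20. The animal's code begins with 12 or 13. Leaving out 1 library at a time kept the difference of CsA from sham between 0.41 and 0.57 on the log2 scale, and called in all 28 fits.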

How the results depend on the processing

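Of 314 refits of the 34 member differences under another setting, 265 kept their direction and side of the threshold, and so did 523 of 532 fits without 1 library each. Differences not called in the main fit count as kept if they stayed uncalled with the same sign. These counts thus do not measure how steady the called differences are. Every member difference called between groups within a region stayed called without any 1 library, and region differences were not refitted this way. With the log10 total as a covariate the differences from sham were 0.31 for frontal miR-9 at 1 day (adjusted p = 0.116), 0.33 for frontal miR-9 (0.124), -0.32 for frontal miR-124a (0.0577) and 0.25 for miR-9 in the hippocampus and amygdala (0.338) in CsA, and -0.23 for miR-124a in the hippocampus and amygdala at 1 day (0.149), and none was called. Frontal miR-9 was then -0.12 for 1 week minus sham and 0.019 for CsA minus 1 day, both turned in sign near 0. With the code class as a term 1 week minus 1 day was not called, at -0.42 and -0.26 for miR-9 in the hippocampus and amygdala and the frontal lobe, and 0.28 for frontal miR-124a (adjusted p = 0.0655). Within code 11 the differences no longer called were 0.70 and -0.32 for frontal miR-9 and miR-124a in CsA minus sham, -0.33 for frontal miR-124a in 1 day minus sham, and, in 1 week minus 1 day, -0.37 and -0.26 for miR-9 in the hippocampus and amygdala and the frontal lobe and 0.35 for frontal miR-124a. There miR-124a was 0.079 and 0.021 for 1 week minus sham in the hippocampus and amygdala and the frontal lobe, turned in sign. Within codes 12 and 13 no difference was called: 0.40 and 0.18 for miR-9 and -0.017 and -0.35 for miR-124a in 1 day minus sham, and 0.19 and 0.054 for miR-9 and 0.22 (turned in sign) and -0.35 for miR-124a in CsA minus sham, in the same order of regions. Within codes 14 to 17 1 week minus sham was called at 0.43 for frontal miR-9 and -0.39 for miR-124a in the hippocampus and amygdala. The subsets hold fewer samples; for all other changes the cause was not tested. The classes for 1 week and for CsA minus 1 day, the class term and the libraries left out for low totals were chosen after seeing the data.

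For miR-124a in 1 week minus 1 day in the hippocampus and amygdala, a call was made by DESeq2 (0.30, adjusted p = 0.04996), on entries without merging (0.34, adjusted p = 0.0302), and without replicate 5 (0.0429) or 10 (0.0250) of the 1 day group or replicate 1 of the 1 week group (0.0480), over a range of 0.21 to 0.37. Frontal CsA minus 1 day changed sign without single libraries, between -0.032 and 0.10 for miR-124a and -0.10 and 0.028 for miR-9, and was -0.0094 for miR-124a without let-7 and miR-98. Frontal 1 week minus sham for miR-9 ran from -0.0097 to 0.16 without single libraries and was -0.029 without the 2 frontal libraries of low total. Without the animal as a replicate block, the region difference of miR-124a was -0.24 at 1 week (adjusted p = 0.0616) and 0.025 in CsA animals (0.017 with the block but without merging). At 1 day it was called at -0.24 by DESeq2 and by RLE factors, -0.25 without a count filter and -0.25 without the animals with low totals. That of miR-9 was 0.0061 at 1 day without merging and -0.032 at 1 week without those animals. Interactions near 0 turned in sign: for miR-9 at 1 day -0.015 by DESeq2, -0.016 by RLE factors and -0.050 without a filter, for miR-124a at 1 day -0.015 without a filter, and for miR-124a at 1 week -0.0022 by DESeq2, -0.0020 by RLE factors, -0.027 without a filter and -0.024 without low totals. For CsA DESeq2 called 29 interactions where edgeR called 0, and RLE factors raised the neuron-enriched miRNAs higher at 1 day in the frontal lobe to 5.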
